A study of Homo sapiens with 4 samples.

Results

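Histones are the proteins that DNA is wound around, and the genes that encode them fall into a pair of classes. The listed transcripts of 24 histone genes were examined in MDA-MB-231, a cell line grown from a human breast carcinoma that lacks hormone receptors and HER2 amplification. Members were all protein-coding rows of the deposited transcript table whose symbol begins with HIST and a digit (the cluster genes) or with H1F, H2AF or H3F (the variant genes). They numbered 34 of 26348 listed protein-coding transcripts, and 24 of 12120 genes with such a transcript. The cluster class held 15 genes with 16 transcripts and the variant class 9 genes with 18 transcripts.

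The cells had been treated for 24 h with DMSO, the solvent, or with 10 µM KH-3, a compound that blocks the RNA-binding protein HuR, and each condition had 2 libraries. The deposited table gives 1 mean normalized read count per transcript, averaged by the authors over libraries that the table does not name. The study also describes a group at a lower KH-3 dose, not analysed here, and whether it enters the mean is not stated. DMSO and KH-3 libraries are not separated in that mean, so no level below can be assigned to either condition or show an effect of KH-3, and none carries an error. The authors' own comparison of KH-3 with DMSO, also in the table, was not used. With no spread between libraries, neighbours in any order of levels cannot be said to differ. The depth of each library is unknown, and the authors' means sum to 12267196 over all 43596 listed transcripts. Of markers of the line, VIM was at 3786 and EGFR at 1242 mean normalized read counts per kilobase, and the hormone receptor genes ESR1 and PGR had no listed protein-coding transcript.

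Cluster genes are the replication-dependent histones. They are short, mostly without introns, sit together on a few chromosomes and are expressed mainly while DNA is copied. Their classical mRNA ends in a conserved stem-loop, bound by SLBP, instead of a poly(A) tail. Variant genes mostly stand alone and as a rule are transcribed through the whole cell cycle into polyadenylated mRNA, while H2AFX is known to give both kinds of mRNA. The libraries were made with an mRNA kit, which selects RNA with a poly(A) tail.

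The stem-loop was searched for after the stop codon in the GENCODE release 44 sequence of each transcript, since it is the feature that separates both kinds of mRNA. It was taken as a 6-base stem that begins with GG, a 4-base loop that begins with TTT, and the paired 6 bases, with a T as the last base of the first stem arm. Of the 15 cluster transcripts found in this release, 9 held one, and of the 18 variant transcripts 1 did, that of H2AFX. Among all 89067 protein-coding transcripts of the release the share was 0.101%, and 66 of the 74 genes behind these were cluster genes. The sequences below, on hg38 and read 5′ to 3′ on the strand of the gene, show the stem-loop in capitals with up to 5 bases on each side, for at least 1 member of each of the 4 families that had a match.

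HIST1H1C (chr6:26055740-26055764, minus strand): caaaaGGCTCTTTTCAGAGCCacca
HIST1H2AC (chr6:26124664-26124689, plus strand): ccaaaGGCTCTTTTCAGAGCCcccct
HIST1H2BK (chr6:27146361-27146386, minus strand): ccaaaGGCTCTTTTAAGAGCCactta
HIST2H2BE (chr1:149886183-149886208, minus strand): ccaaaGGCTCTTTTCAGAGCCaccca
HIST1H3H (chr6:27810511-27810536, plus strand): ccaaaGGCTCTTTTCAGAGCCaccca
H2AFX (chr11:119094893-119094918, minus strand): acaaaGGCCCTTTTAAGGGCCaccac

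The 16 capital letters were identical in 8 of the 10 matches, and HIST1H2BK and H2AFX each had their own form. Only the bases between the GG and the T of the first stem arm, and the last loop base, were free in the search. The other letters were set by it, directly or by pairing. In 7 cluster transcripts the annotated end lay 4 to 6 bases after the stem-loop, the place where histone mRNA is normally cut, and the stem-loop lay 27 to 67 bases after the stop codon, in the 3′ UTR. In HIST2H2BE, HIST1H3H and H2AFX the transcript ran on for 1729, 769 and 1024 bases. HIST2H2BE and HIST1H3H also had the poly(A) signal AATAAA in their last 50 bases, which none of the 7 transcripts that stop at the stem-loop had. H2AFX did not have it either, and only 5 of the 18 variant transcripts did, so its absence does not mark one kind of mRNA. The 6 cluster transcripts with no match were those of HIST1H2BC, HIST1H2BD, HIST1H2BJ and HIST1H2BN, the spliced transcript of HIST1H2AC, and HIST1H2AG. All of them but HIST1H2AG were spliced, with 2 or more exons, and 3 of the 6 had AATAAA near the end. HIST1H2AG had 1 exon, a 3′ UTR of 71 bases and no AATAAA near its end. The search took only exactly paired stems, and whether HIST1H2AG holds a less exact stem-loop was not tested.

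Levels of different genes were compared per kilobase, as the mean normalized read count divided by the transcript length in the table and summed over the protein-coding transcripts of a gene. Variant genes made up 92.5% of the summed histone level and cluster genes 7.52%. The variant sum was 13036 per kilobase and the cluster sum 1060, a ratio of 12.3. The median variant gene was at 976 per kilobase and the median cluster gene at 21.8, while the median of all listed protein-coding genes was 117. The ranges overlapped: 8 of the 9 variant genes were above the highest cluster gene, HIST1H2BK, and 2 cluster genes, HIST1H2BK and HIST1H1C, were above the lowest variant gene, H2AFY. No test was made, since the table holds no replicate values and genes are not replicates. The place of poly(A) selection in this difference was not tested.

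**Figure D1:**
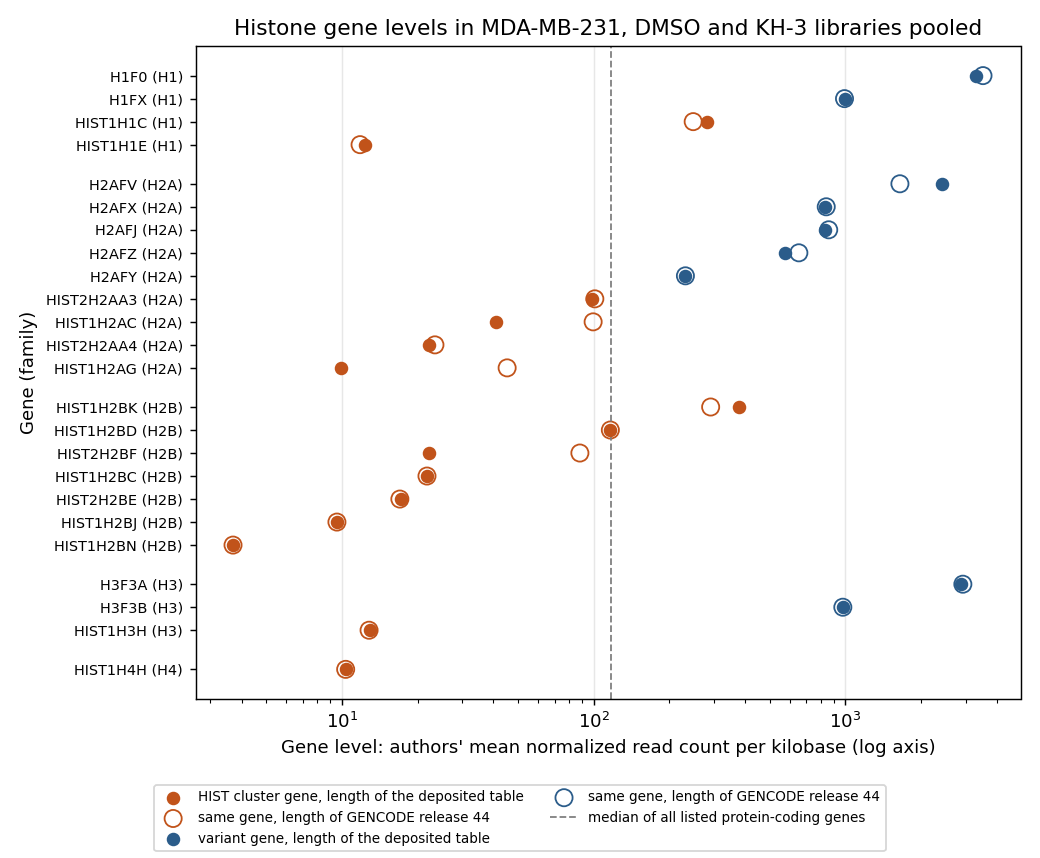
Level of each of the 24 histone genes, as the authors' mean normalized read count per kilobase on a log axis, grouped by family and ordered by level. Filled points use the transcript length of the deposited table, open circles that of GENCODE release 44, and the dashed line is the median of all listed protein-coding genes at 117; the 9 variant genes lie to the right of it and 13 of the 15 cluster genes at or to the left of it, HIST1H2BK and HIST1H1C being clearly above.

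Among single transcripts the same separation was seen with more overlap. The 18 variant transcripts ran from 7.86 to 3306 per kilobase with a median of 414, and 14 of them were above the median protein-coding transcript of the table, at 35.9. The 16 cluster transcripts ran from 3.70 to 379 with a median of 19.5, and 4 were above that value, those of HIST1H2BK, HIST1H1C, HIST1H2BD and HIST2H2AA3. In mean normalized read count, 12 of the 16 cluster transcripts and 3 of the 18 variant transcripts were under 50. Of all listed protein-coding transcripts, 36.0% had a read count under 44.2 and 39.2% had one under 52.3. The table lists no transcript under 7.34, and the lowest cluster transcript, HIST1H2BJ at 9.09, stood close to that limit.

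**Figure D2:**
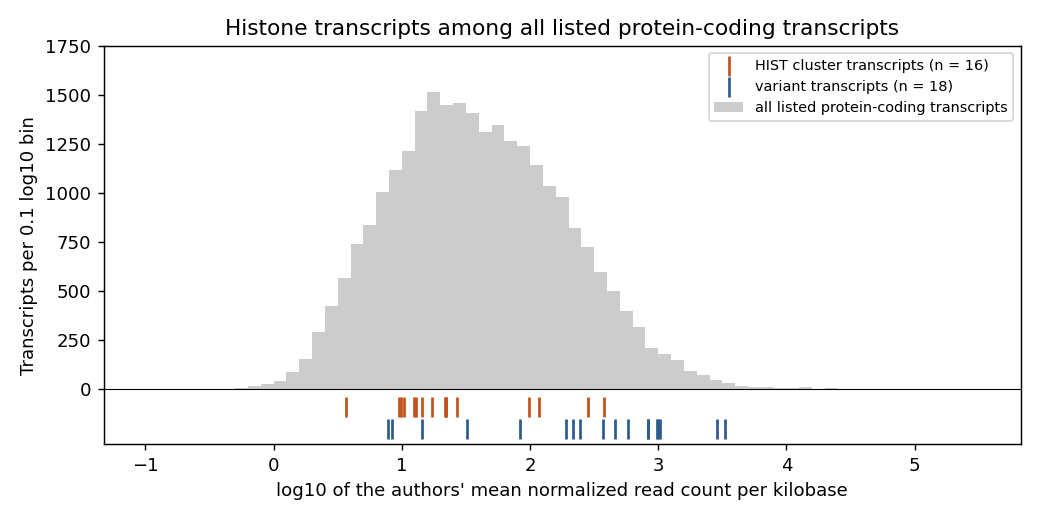
Grey bars count all 26348 listed protein-coding transcripts by the log10 of the mean normalized read count per kilobase, and the marks under the axis place each of the 16 HIST cluster transcripts (upper row) and 18 variant transcripts (lower row). Most cluster marks lie under the left and middle of the distribution and most variant marks under its right side, with overlap between 7.86 and 379 per kilobase.

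The linker histones of family H1 bind the DNA between nucleosomes. H1F0, which is known for accumulating in differentiated and non-dividing cells, had the highest level of all 24 genes, with a mean normalized read count of 7749 and 3306 per kilobase. Its single-exon transcript lies on chromosome 22 from 37805229 to 37807432. H1FX followed with a read count of 1503 and 997 per kilobase. The cluster gene HIST1H1C, which encodes H1.2, had a read count of 182 and 283 per kilobase. HIST1H1E, which encodes H1.4, had a read count of 9.30 and 12.3 per kilobase, near the lower limit of the table. The variants therefore held 93.6% of the H1 level, and H1F0 alone held 71.9%. The protein encoded by H1F0 was identical to that of HIST1H1C at 43.2% of alignment positions, gaps counted, and to that of H1FX at 31.0%. For HIST1H1C and HIST1H1E this was 85.5%.

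Family H2A held 35.8% of the histone level, against 32.6% for H1 and 27.4% for H3, and 96.6% of it was in 5 variant genes. The order of these families depended on the setting: H2A was at 5052 and H1 at 4598 per kilobase, but 4496 and 4767 with the lengths of release 44. With only the highest transcript of each gene H2A was at 3609 per kilobase, below H1 at 4598 and H3 at 3857, and in read counts not divided by length H1 was at 9443 and H2A at 5984. H2AFV and H2AFZ encode the H2A.Z proteins, which mark promoters and are placed in chromatin by SRCAP. H2AFV had 7 protein-coding transcripts that summed to 2419 per kilobase, the longest on chromosome 7 from 44826791 to 44848077. Its transcript of 752 bases was at 1030 per kilobase, or 42.6% of the gene. Its transcript of 3804 bases had the higher read count, 1736 against 774, but a level of 456 per kilobase. This order turned with the lengths of release 44, in which the first of these transcripts has 3026 bases and was at 256 per kilobase, 15.6% of the gene. The other 5 H2AFV transcripts were between 14.3 and 373 per kilobase.

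The only protein-coding transcript of H2AFZ was at 578 per kilobase. H2AFZ had 4 further listed transcripts of other types at 4769 per kilobase together, 89.2% of all listed H2AFZ level. With these included H2AFZ rose from place 8 to place 1 among the 24 genes. H2AFX encodes H2AX, which is phosphorylated beside DNA breaks, and was at 827 per kilobase. H2AFJ was at 826 per kilobase, close to H2AFX, and the order of both genes turned with the lengths of release 44. H2AFY encodes macroH2A1, whose large extra domain is found on silent chromatin. Its 3 protein-coding transcripts had levels of 192, 32.0 and 7.86 per kilobase, and 72.5% of its listed level was in 7 transcripts of other types.

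The 4 cluster H2A genes summed to 171 per kilobase, 3.39% of the family. HIST2H2AA3 was at 98.2, HIST1H2AC at 41.1, HIST2H2AA4 at 22.2 and HIST1H2AG at 9.94 per kilobase. HIST2H2AA3 and HIST2H2AA4 are copies with identical coding sequences on chromosome 1. All 50-base stretches of the release 44 transcript of HIST2H2AA3 also occur in that of HIST2H2AA4, and 99.8% the other way, so the split of reads between them is uncertain and their sum is the safer value. HIST1H2AC had 2 protein-coding transcripts at 26.7 and 14.4 per kilobase, with read counts of 44.2 and 21.0. Protein identity to the cluster H2A genes, with alignment gaps counted, was 95.4% for H2AFJ and 83.9% to 84.6% for H2AFX. It was 58.6% to 59.4% for H2AFZ, 54.1% to 54.9% for the H2AFV protein of 114 residues and 22.1% to 22.7% for H2AFY. In the order H2AFJ, H2AFX, H2AFZ, H2AFV and H2AFY the levels were 826, 827, 578, 2419 and 231 per kilobase. These levels count protein-coding transcripts only, and most of the listed H2AFZ and H2AFY level was in other types.

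Family H2B was represented by 7 cluster genes only, with 570 per kilobase in all. HIST1H2BK at 379 per kilobase held 66.5% of it and HIST1H2BD at 117 held 20.5%. The remaining 5 genes, HIST2H2BF, HIST1H2BC, HIST2H2BE, HIST1H2BJ and HIST1H2BN, ran from 22.2 down to 3.70 per kilobase. HIST1H2BK was listed with 381 bases, the length of its coding sequence, and 57.2% of the 50-base stretches of its release 44 transcript occur in transcripts of other genes, chiefly H2BC12L. For HIST2H2BF this share was 74.0%. The levels of both are uncertain for that reason. HIST1H2BN stood apart with a transcript of 4137 bases in 3 exons and a coding sequence of 501 bases, against 381 in the other 6 genes.

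Among listed protein-coding H3 mRNA, 99.7% of the level was from the genes of the variant H3.3, which is put into chromatin outside DNA replication by HIRA, or by DAXX with ATRX. H3F3A and H3F3B encode the same protein of 136 residues from coding sequences that are 78.6% identical. H3F3A, with its main transcript on chromosome 1 from 226062716 to 226072019, was at 2876 per kilobase, next after H1F0 among all 24 genes, with 99.7% in its transcript of 1088 bases. H3F3B was at 976 per kilobase in its protein-coding transcript, and 64.4% of its listed level was in 2 transcripts of other types. Of the 50-base stretches of the main H3F3A transcript, 72.7% occur in transcripts of other genes, so its level is uncertain, against 8.28% for H3F3B. The only listed cluster gene of the family, HIST1H3H, had a read count of 16.0 and 13.0 per kilobase, 0.336% of the H3 level, and 1 of 15 annotated cluster H3 genes. These are levels of mRNA selected for a poly(A) tail, not of the protein. The protein of HIST1H3H shared 96.3% of residues with H3.3.

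Histone H4 has no variant gene in the list searched. Its only listed protein-coding transcript was that of HIST1H4H, with a read count of 10.7 and 10.4 per kilobase. A nonsense-mediated-decay transcript of the same gene had the same length of 1034 bases and the same read count, so both rows carried identical values. HIST2H4A and HIST2H4B were listed only by nonsense-mediated-decay transcripts, with read counts of 23.3 and 29.9, and are not members.

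The listed genes are a minority of the histone genes that are annotated. RefSeq on GRCh38.p14 names 71 protein-coding genes with a HIST symbol among their names, of which 15 had a listed protein-coding transcript, or 21.1%. Of the 16 variant genes found the same way, 9 were listed, or 56.2%. The share listed among all annotated protein-coding genes is not given here, so neither share can be set against it. Among cluster genes the share was 33.3% for H1, 23.5% for H2A, 38.9% for H2B, 6.67% for H3 and 6.67% for H4. Of the 55 annotated cluster genes on chromosome 6, 11 were listed, and of the 15 on chromosome 1, 4 were. The 10 listed genes placed on chromosome 6, between 26055740 and 27855709, summed to 890 per kilobase, and the 4 on chromosome 1, between 149811879 and 149886682, to 160 per kilobase. HIST1H4H, also on chromosome 6 and at 10.4 per kilobase, is in neither sum, since its transcript was not found in GENCODE release 44. Whether the annotated genes that were not listed fell under the limit of the table was not tested.

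The transcript models bear on these levels. Of the 15 cluster transcripts found in release 44, 5 had the same length in both releases, 5 were longer in the deposited table and 5 were shorter. HIST1H2AG was listed with 2250 bases against 493 in release 44, HIST2H2BF with 1954 against 492, and the transcript of HIST1H2AC that stops at the stem-loop with 1654 against 519. With the shorter lengths the level of HIST1H2AG went from 9.94 to 45.4 per kilobase, that of HIST2H2BF from 22.2 to 88.2 and that of HIST1H2AC from 41.1 to 99.6. Only the divisor changed, and the read counts stayed those of the deposited models. Any reads on bases absent from release 44 were still counted, so these are not levels of the shorter transcripts. Among variants H2AFV moved the other way, from 2419 to 1645, since its transcript of 752 bases has 3026 in release 44. H1F0, H3F3A and H2AFV headed the 24 genes in that order with either set of lengths.

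**Figure D3:**
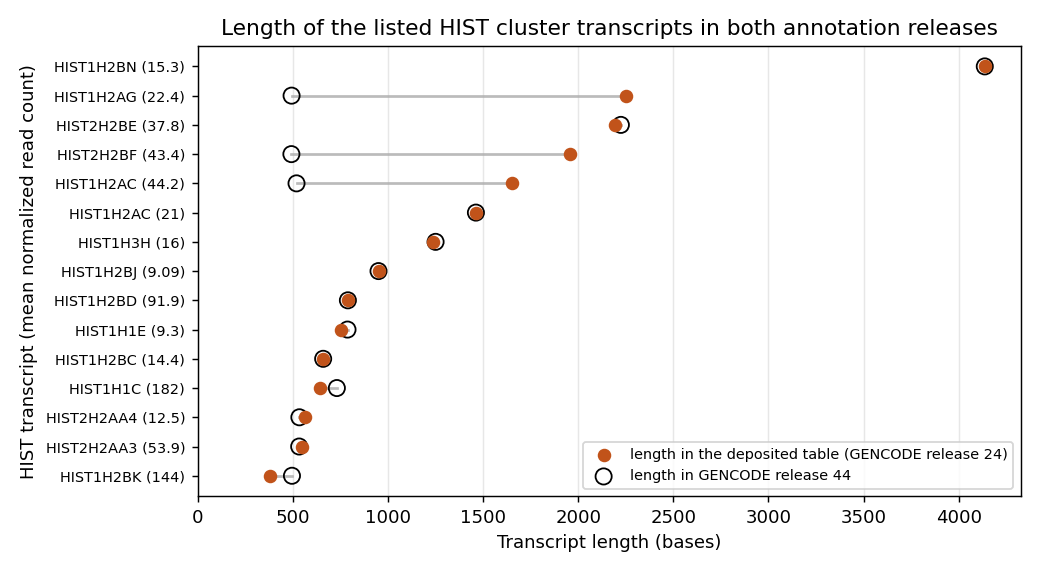
Length in bases of the 15 listed HIST cluster transcripts that were found in GENCODE release 44, in the deposited table (filled points) and in release 44 (open circles), with the mean normalized read count in brackets. HIST1H2AG, HIST2H2BF and 1 transcript of HIST1H2AC are over 1000 bases longer in the deposited table, and the others differ by 114 bases or less.

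The levels of cluster transcripts were also set beside the kind of 3′ end. The 7 that stop at the stem-loop in release 44 ran from 12.3 to 379 per kilobase (median 26.7) by the deposited lengths, and from 11.8 to 292 (median 88.2) by those of release 44. HIST1H3H and HIST2H2BE, which run past it, were at 13.0 and 17.2 per kilobase. The 6 without a match ran from 3.70 to 117, and their median was 12.2 by the deposited lengths and 18.1 by those of release 44. The ranges overlapped with either lengths, and the transcript with the highest level, HIST1H2BK, was annotated in release 44 to stop at the stem-loop. The read counts, however, belong to the deposited models, whose ends can differ. For all 7 that stop at the stem-loop in release 44 the deposited model had another length. HIST1H1E, HIST2H2AA3 and HIST2H2AA4 were listed with 754, 549 and 564 bases, against 787, 533 and 534 in release 44. HIST1H2BK and HIST1H1C were listed with 381 and 642 bases, the lengths of their coding sequences. HIST2H2BF and this HIST1H2AC transcript were listed with 1954 and 1654 bases, against 492 and 519 in release 44. Levels by kind of end in the deposited models were not compared.

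Promoters were compared next, from RefSeq sequence on GRCh38.p14 of 250 bases before to 50 after each start, which was present for 66 annotated cluster genes and 14 variant genes, 23 of the 24 members among them. H2B promoters are known for the octamer ATTTGCAT, a site of the factor encoded by POU2F1. On either strand it was found in 14 of 18 cluster H2B genes and 11 of 16 cluster H2A genes, against 1.77% of all 35116 promoters. Here and below a histone gene counted if any of its promoters matched, while the share of all promoters counts each promoter singly. Of these 11 H2A windows, 8 overlapped the window of an H2B gene, so both families partly share the same sequence. None of the cluster H1 and H4 genes had a match, and 1 of 13 cluster H3 genes did. Of the 7 listed H2B genes, 5 had it, shown here with the octamer in capitals and 5 bases on each side, read on the strand of the gene.

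HIST2H2BF (chr1:149812407-149812424, minus strand): tcttcATTTGCATacggg
HIST2H2BE (chr1:149886716-149886733, minus strand): ccctaATTTGCATaaggt
HIST1H2BC (chr6:26124037-26124054, minus strand): acctcATTTGCATagctc
HIST1H2BJ (chr6:27132830-27132847, minus strand): accttATTTGCATaagcg
HIST1H2BK (chr6:27146892-27146909, minus strand): accttATTTGCATgagag

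In 4 of these genes the octamer began 46 to 49 bases before the start, and in HIST1H2BC it began 123 bases before it. The levels of the 5 genes ran from 9.57 to 379 per kilobase, and those of HIST1H2BD and HIST1H2BN, which had no match, were 117 and 3.70. The pentamer CCAAT was found in all 53 cluster H1, H2A, H2B and H3 genes with a promoter but in 3 of 13 for H4, against 34.6% of all promoters. Variant genes held it too, in 2 of 3 for H1, 8 of 9 for H2A and 2 of 2 for H3. The hexamer TATAAA was found in 11 of the 15 listed cluster genes and in 4 of the 8 listed variant genes with a promoter, against 11.5% of all promoters. Of the variant genes with a promoter, H3F3B alone had the octamer. No motif contains another in its letters, and a match is a description of the sequence alone.

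**Figure D4:**
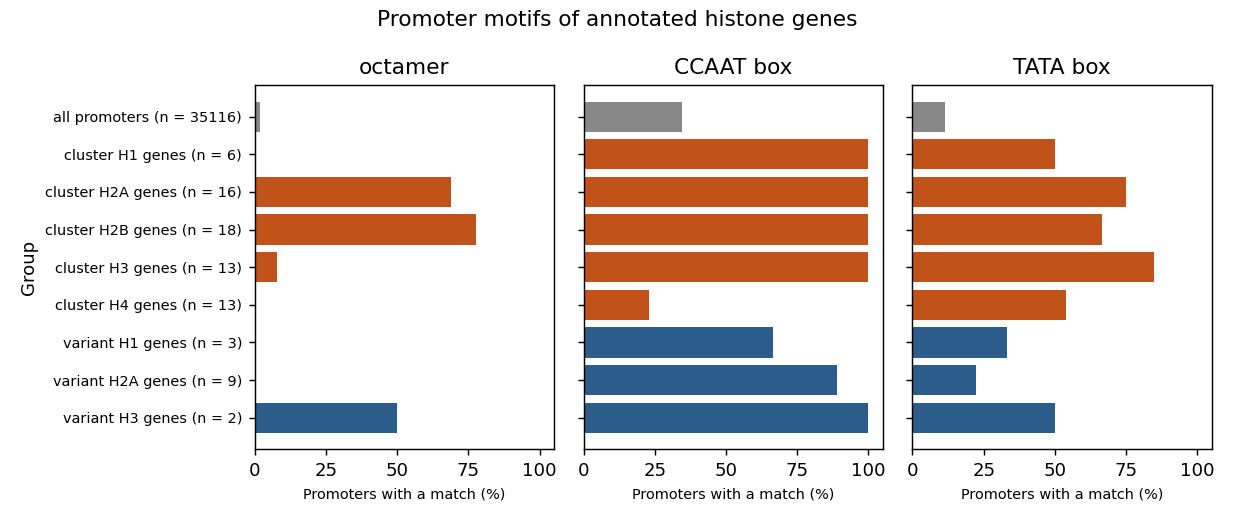
Percent with the octamer, CCAAT or TATAAA on either strand, for all 35116 promoters (grey), annotated HIST cluster genes by family (orange) and variant genes (blue). The number of promoters or genes is in brackets, and a gene counts if any of its promoters matches. The octamer is frequent in cluster H2A (68.8%) and H2B (77.8%) genes, and CCAAT in all cluster families but H4. CCAAT is also frequent in the variant groups (66.7% to 100%), which hold only 2 to 9 genes.

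Genes that make and handle histone mRNA and protein were taken from fixed lists. Of 14 genes for histone mRNA transcription and processing, 13 had a listed protein-coding transcript, with a median of 158 per kilobase, and 9 were above the median gene. SLBP, which binds the stem-loop, was the highest at 833 per kilobase, followed by the cleavage factors CPSF3 at 621 and CPSF2 at 505. POU2F1 had no listed protein-coding transcript. All 17 histone chaperone genes were listed, with a median of 322 per kilobase, and 16 were above the median gene. The highest were SSRP1 at 2256 and SUPT16H at 1178, the subunits of the FACT complex, and NAP1L1 at 1179 per kilobase.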

How the data were processed

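RNA-seq libraries of MDA-MB-231 cells (2 with DMSO, 2 with 10 µM KH-3) were mapped by the authors with STAR to GENCODE release 24, read numbers per transcript were estimated with eXpress and compared with DESeq2 (versions not given in the sources used here). The deposited mean normalized read count is a signal that the authors averaged over libraries; which libraries enter it is not stated. The log2 fold changes, p-values and q-values of the authors' comparison were not used, so no test was possible. Levels were divided by the listed transcript length and summed per gene. Transcripts were matched by ID without version to GENCODE release 44 on hg38 (33 of 34; 16 with the same length). Coding sequences were aligned globally, and identity is given over all alignment positions, gaps counted. All variant genes were named, with the 3 highest and the lowest cluster genes per family and genes with several transcripts, and, of the processing and chaperone lists, the 3 highest and any not listed. Other cluster genes and the line markers were named after their values were seen. Members and lists were chosen with earlier results of these data known. Alternatives were no division by length, the highest transcript only, all transcript types, a read count minimum of 50 and release 44 lengths. The release 44 lengths were applied to the same read counts, which belong to the deposited models. The scripts were tested on simulated data. Python 3.11.15, numpy 2.4.6, pandas 2.3.3, Biopython 1.88 and matplotlib 3.10.9 were used.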

Additional observations from a re-analysis of the deposited data

How the results depend on the processing

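A summed level or share was taken as moved when it, or the cluster part of a share, changed by over 1.5 times. With the highest transcript of each gene none of 11 values moved. Without division by length, cluster H1 came to 191, variant H1 to 9252 and cluster H2B to 356 read counts, and the variant share of H1 to 98.0%. With all transcript types, variant H2A came to 10332 and cluster H4 to 30.8 per kilobase, and the variant share of H2A to 98.1%. With read counts of at least 50, cluster H2A came to 98.2, the variant shares to 98.0% for H2A and 100% for H3, and cluster H3 and H4 had no value left. With the lengths of release 44, an alternative chosen after seeing the data, cluster H2A came to 269 per kilobase and the variant share of H2A to 94.0%. These values divide read counts of the deposited models by other lengths, so they are not levels of the release 44 transcripts. No paired analysis was possible because the table has no column per library, and no library could be left out for the same reason. Depth per library is unknown, which leaves transcripts near the limit of the table least certain.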
